A study of Mus musculus with 36 samples.

Results

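Mature splenic natural killer (NK) cells of B2m-/- mice were compared between 2 sorted subsets. One, called TP, was positive for the inhibitory receptors Ly49C, Ly49I and NKG2A, and the other, called SP, was positive for Ly49I alone. The comparison rests on 6 libraries, KO SP 1 to 3 against KO TP 1 to 3, of 36 in the series, chosen by their labels and not by any measured value. Both subsets lay in the CD27-CD11b+ gate and differ by 2 of the 3 sorted receptors. KO is B2m-/-, and every KO library carries that allele. WT is B2m+/+ on the C57BL/6 (B6) background, sorted in the same way; the background of the KO mice was not stated in the sources used here. The TN subset was negative for all 3 receptors. The 6 groups (KO and WT; TP, SP and TN) hold 3 libraries each and share 1 table of 18 libraries and 1 batch date. Animals' age, the cells per sort and whether a number such as KO1 marks 1 mouse across subsets were not given in the labels. Each library is labelled a biological replicate.

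Ly49C, Ly49I and NKG2A are C-type lectin-like receptors on NK cells that carry inhibitory motifs. Ly49C and Ly49I bind classical MHC class I molecules of B6 mice, and NKG2A, paired with CD94, binds the non-classical molecule Qa-1. B2m encodes beta-2 microglobulin, the light chain without which MHC class I is hardly displayed. NK cells whose inhibitory receptors meet their ligand during development become more responsive, a process called education or licensing. In B2m-/- mice the ligands of all 3 receptors are largely missing, so SP and TP cells of these mice differ in receptors that have little to bind. The receptors are encoded together with their relatives in the NK gene complex, a run of lectin genes on mouse chromosome 6.

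The sort was visible in the RNA. Klrc1, which encodes NKG2A, was at 980, 901 and 914 TPM in KO TP 1 to 3 and at 22.0, 32.1 and 37.2 TPM in KO SP 1 to 3. TPM is the authors' level per transcript length, scaled to a fixed total per library. Klra3, which encodes Ly49C, stood at 303, 290 and 433 TPM in KO TP 1 to 3, against 1.55, 1.02 and 0.79 TPM in KO SP 1 to 3. Klra9, which encodes Ly49I and was positive in both subsets, measured 1254, 1150 and 1319 TPM in the TP libraries and 1191, 1199 and 1498 TPM in the SP libraries. Its ranges overlapped, and in KO TN its mean was 158 TPM. These 3 genes were used in the sort and check the labels; they are not findings. B2m itself had 102, 107 and 73.9 TPM in KO TP and 107, 106 and 110 TPM in KO SP, against means of 3312 TPM in WT TP and 3215 TPM in WT SP. A level for the whole gene does not show which part of it the remaining B2m reads came from. Itgam, which encodes CD11b, had a mean of 717 TPM in KO TP and 646 TPM in KO SP.

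Ly49 and NKG2 genes resemble each other, so reads can be shared between them. Of all 50-base stretches in the annotated transcripts of Klra3 (GENCODE M21), 20.7% also occur in another Klr gene. The share was 31.5% for Klra9, 39.8% for Klra10, 33.1% for Klra8, 13.7% for Klra13-ps, 12.3% for Klra7, 4.35% for Klra4 and 2.98% for Klra1. In the NKG2 family it was 38.6% for Klrc1, 16.3% for Klrc2 and 36.3% for Klrc3. For Klrb1b it was 5.77%, for Klri2 1.19%, and no shared stretch was found for Klrg1. Levels of members with a large share are uncertain to the extent that the authors' counting divided such reads.

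The 6 libraries list 13130 to 14501 genes above 0, and replicates of a group correlated at 0.932 to 0.965 on the log2 scale. Sequencing depth cannot be read from TPM and is unknown here, so precision comes from the spread between replicates. That spread was pooled over all 6 groups of 3, so WT and TN libraries enter each standard error and p. For a gene near 0 in the other groups, those libraries bring the pooled spread down. Ribosomal protein genes took 2.93% to 3.24% of TPM in KO TP and 3.29% to 3.44% in KO SP, and the part of this in the results was not tested.

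A gene was called when its adjusted p was under 0.05 in limma, fitted to log2(TPM + 1) of 12018 genes with Benjamini-Hochberg adjustment over all of them. Between KO SP and KO TP 24 genes were called, 0.200% of those tested. Of these, 10 were higher in SP (0.0832%) and 14 were lower (0.116%). The balance depended on the treatment of low values: a pseudocount of 0.1 TPM gave 10 higher and 8 lower, a filter at 5 TPM gave 9 and 7, and no filter gave 12 and 29. All 24 had groups that did not overlap, beside 10.9% of all genes tested. They were selected for a small p, so this is not separate support. Of the 24, 17 differed by at least 2-fold on the log2(TPM + 1) scale, the sorted Klrc1 and Klra3 included. With 3 libraries against 3, the smallest p of an exact permutation test is 0.1, which no single gene could bring under the threshold, and limma was used for that reason. Apart from Klrc1 and Klra3, the called genes fell into other receptors of the NK gene complex, a few further surface proteins and enzymes, 3 very short RNA genes, and markers of neutrophils and plasma cells. Differences below are SP minus TP on the log2(TPM + 1) scale with their standard error (SE), and this scale understates the change of genes at low levels. In sorted bulk cells, fewer cells of a type and less RNA per cell cannot be told apart.

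Among the Ly49 receptors outside the sort, 3 genes were higher in SP: Klra4, Klra10 and Klra13-ps. Of 11 listed genes 9 were tested and none was called lower, and the list's median difference was 0.79 against -0.01 over all genes tested. In 7 of the 9 every SP library lay above every TP library, which held for 4.75% of all genes tested (6.14% lay entirely below). The list was drawn up with earlier results of these data known. The largest rise was in Klra4 (ENSMUSG00000079852), which encodes the activating receptor Ly49D. It stood at 214, 218 and 259 TPM in KO TP 1 to 3, against 556, 620 and 681 TPM in KO SP 1 to 3. The lowest SP library was far above the highest TP library, and the mean was 2.69-fold higher (difference 1.42, SE 0.13, adjusted p = 1.7e-05). In KO TN the mean was 998 TPM.

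Klra10 (ENSMUSG00000072718), which encodes Ly49J, measured 160, 165 and 134 TPM in the TP libraries and 290, 308 and 344 TPM in the SP libraries. The groups stood well apart, 2.05-fold in the means (difference 1.04, SE 0.15, adjusted p = 0.00189), but the call was lost when only KO SP and KO TP were fitted (limma, adjusted p = 0.0587). Klra13-ps (ENSMUSG00000030178), annotated as a pseudogene, was the most abundant of these transcripts, at 1914, 1663 and 1750 TPM in KO TP and 3066, 3116 and 3455 TPM in KO SP. Its mean was 1.81-fold higher in SP (difference 0.86, SE 0.08, adjusted p = 1.7e-05) and reached 4553 TPM in KO TN.

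Other Ly49 genes had non-overlapping groups but missed the threshold. Klra8 encodes Ly49H, the activating receptor for a protein of mouse cytomegalovirus. It had 730, 704 and 927 TPM in KO TP and 1035, 1130 and 1477 TPM in KO SP (difference 0.62, SE 0.14, adjusted p = 0.122). Klra1, which encodes Ly49A, stood at 38.1, 44.2 and 44.8 TPM in KO TP 1 to 3, against 65.3, 77.8 and 78.7 TPM in KO SP 1 to 3 (difference 0.79, SE 0.18, adjusted p = 0.118). Klra7, which encodes Ly49G, measured 559, 606 and 571 TPM in the TP libraries and 724, 765 and 722 TPM in the SP libraries (difference 0.35, SE 0.09, adjusted p = 0.301). In each of these 3 genes the lowest SP library was above the highest TP library.

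Ly49 genes can have closely related upstream sequences, and 2 such pairs are shown for that reason. Klra3, which SP cells were sorted to lack, and Klra9, which both subsets keep, were aligned over the 250 bases before their annotated starts. They were identical in 224 of 269 aligned columns (83.3%), and Klra4 and Klra8 in 212 of 251 (84.5%). Columns with a gap count as differing, so the shifted ends of Klra3 and Klra9 lower their percentage. Klra4 was called higher in SP. Klra8 was not called, but its SP libraries also lay entirely above TP, and the 2 genes were not tested against each other. The sequences are from RefSeq (GRCm38.p6), 5′ to 3′, with capitals at bases that differ from the other gene of the pair in a global alignment, or have no partner in it.
Klra3 (chr6:130337627-130337876, minus strand): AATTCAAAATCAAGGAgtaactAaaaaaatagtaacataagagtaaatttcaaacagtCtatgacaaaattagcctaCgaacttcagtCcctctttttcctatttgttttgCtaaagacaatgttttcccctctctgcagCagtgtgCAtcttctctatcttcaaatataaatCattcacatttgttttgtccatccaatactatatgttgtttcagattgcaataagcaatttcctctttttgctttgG
Klra9 (chr6:130193113-130193362, minus strand): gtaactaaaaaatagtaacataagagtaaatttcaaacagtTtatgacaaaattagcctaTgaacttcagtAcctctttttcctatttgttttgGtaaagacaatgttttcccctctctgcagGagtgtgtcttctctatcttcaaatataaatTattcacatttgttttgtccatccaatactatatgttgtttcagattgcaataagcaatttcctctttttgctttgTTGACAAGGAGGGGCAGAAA
Klra4 (chr6:130067272-130067521, minus strand): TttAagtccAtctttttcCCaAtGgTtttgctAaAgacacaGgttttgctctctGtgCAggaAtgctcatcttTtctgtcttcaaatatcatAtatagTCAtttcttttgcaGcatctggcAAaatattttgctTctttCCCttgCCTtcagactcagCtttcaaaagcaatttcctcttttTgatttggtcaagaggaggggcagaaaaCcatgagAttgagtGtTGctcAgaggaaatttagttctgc
Klra8 (chr6:130129899-130130148, minus strand): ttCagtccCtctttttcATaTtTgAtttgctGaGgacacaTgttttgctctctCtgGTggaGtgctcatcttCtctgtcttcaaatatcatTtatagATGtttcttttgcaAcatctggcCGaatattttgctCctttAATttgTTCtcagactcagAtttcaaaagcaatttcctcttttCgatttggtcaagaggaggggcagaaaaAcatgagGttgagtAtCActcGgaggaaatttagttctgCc
The capitals number 26 bases in Klra3 and 26 in Klra9, most of them at the ends, where the annotated starts are shifted against each other. Klra4 and Klra8 differ at 38 bases each, spread along the window. TATAAA on either strand was found in 7 of 11 Klra windows and in 12.4% of all 32851 RefSeq windows of this length. TGTGGT, the core letters of the RUNX motif, was found on either strand in 1 of the 11 Klra windows and in 3 of 3 Klrc windows, against 14.0% of all windows. TGANTCA (AP-1), AGGTGTGA (T-box) and AGGAAGT (ETS) were found in none of the 14 Klra and Klrc windows, against 6.75%, 1.12% and 7.69% of all windows. A match is a run of letters, not a bound site.

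Among 17 listed lectin receptors of the complex and its relatives outside Ly49, 15 were tested. Of these 2 were called higher and 2 lower, beside 0.0832% and 0.116% of all genes tested. SP lay entirely above TP in 6 and entirely below in 2, beside 4.75% and 6.14% of all. The list's median difference was 0.15, against -0.01 over all genes tested. Klrc2 (ENSMUSG00000052736) encodes NKG2C, an activating relative of NKG2A that also pairs with CD94. It had 538, 456 and 478 TPM in KO TP and 865, 931 and 995 TPM in KO SP. All SP libraries lay above all TP libraries, 1.90-fold in the means (difference 0.92, SE 0.09, adjusted p = 1.77e-05). Klri2 (ENSMUSG00000043932), a lectin-like receptor of the same complex, stood at 313, 299 and 307 TPM in KO TP 1 to 3, against 481, 520 and 525 TPM in KO SP 1 to 3. The means differed 1.66-fold (difference 0.73, SE 0.07, adjusted p = 1.77e-05). Klrc3, a close relative of Klrc2, had means of 154 TPM in KO TP and 253 TPM in KO SP without passing the test (adjusted p = 0.0761); it was named after its values were seen.

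Klrb1b and Klrg1 were lower in SP. Klrb1b (ENSMUSG00000079298) encodes an inhibitory NKR-P1 receptor whose ligand is the lectin Clr-b. It measured 727, 763 and 639 TPM in the TP libraries and 347, 411 and 439 TPM in the SP libraries, with a mean of 224 TPM in KO TN. The TP mean was 1.78-fold that of SP (difference -0.83, SE 0.11, adjusted p = 0.00111). In a fit of KO SP and KO TP alone Klrb1b was not called (adjusted p = 0.156). Klrg1 (ENSMUSG00000030114) encodes an inhibitory receptor for cadherins that appears on late mature NK cells. It had 141, 141 and 144 TPM in KO TP and 85.4, 74.7 and 87.7 TPM in KO SP, with a mean of 44.9 TPM in KO TN. The groups did not overlap, and the TP mean was 1.72-fold that of SP (difference -0.78, SE 0.14, adjusted p = 0.0201). The Klrg1 call was lost when any 1 of KO TP 1, 2 or 3 or KO SP 1 or 2 was left out, with limma's adjusted p between 0.0474 and 0.169 over the 6 such fits, and it was also lost with no variance trend (0.066). Klrk1, which encodes NKG2D, and Klrb1c, which encodes NK1.1, were not called, with differences of 0.15 (SE 0.08) and 0.10 (SE 0.06). The SP libraries lay entirely above TP for Klrk1, and the groups overlapped for Klrb1c.

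**Figure D1:**
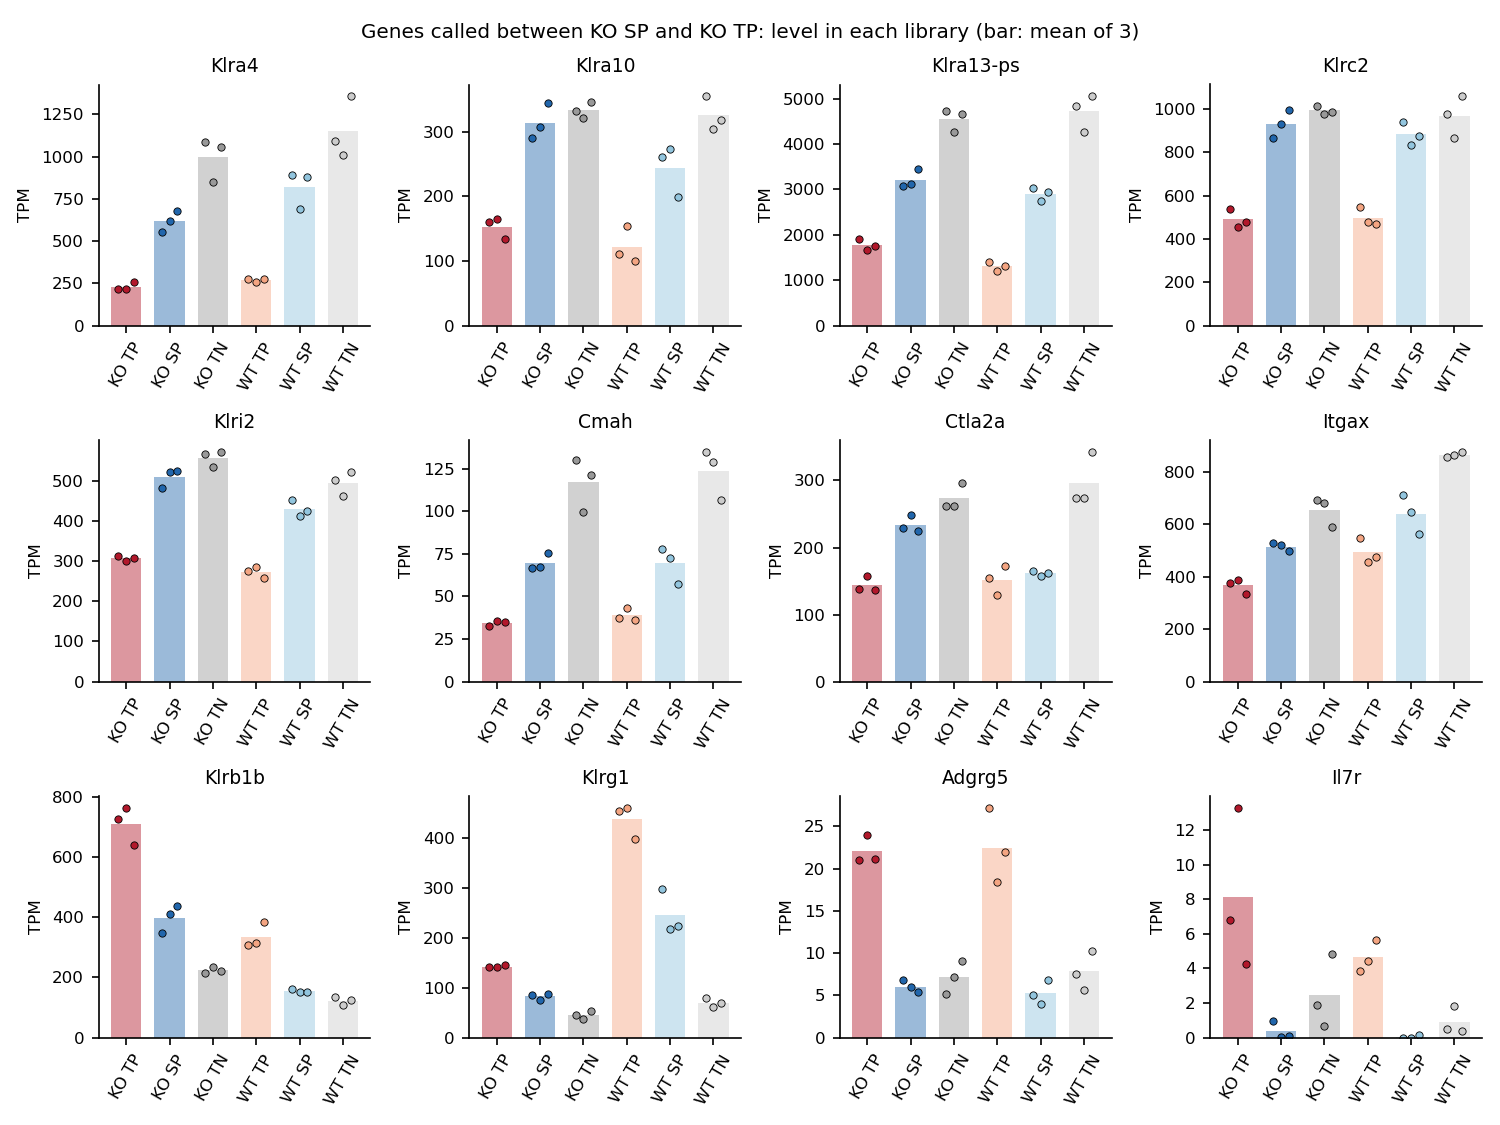
Level in TPM of 12 called genes in each library of the 6 sorted groups; bars are means of 3 libraries and points are single libraries. The KO SP libraries (blue) lie entirely above KO TP (red) for the first 8 genes and entirely below for the last 4.

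Most called receptors lie in 1 stretch of chromosome 6. From Klrb1a to Klra1, in the order of the RefSeq annotation, 38 genes were tested. Without the 3 sorted genes 35 remained, of which 5 were called higher and 1 lower, and 13 had SP entirely above TP and 1 entirely below. Of 11955 tested symbols outside the stretch, 5 were called higher and 11 lower, and 556 lay entirely above and 733 entirely below. The median difference of the 35 was 0.32, against -0.01 outside. The 35 include Gm24712, Gm23552 and Gm24072, which have identical values (difference 1.07, SE 1.27), so this median counts that value 3 times. The stretch was chosen after the values were seen. Within it the direction was mixed: Klrc2 rose and Klrb1b fell, and Klra5 had a difference of -0.27 (adjusted p = 1). Klrg1 lies outside the stretch.

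**Figure D2:**
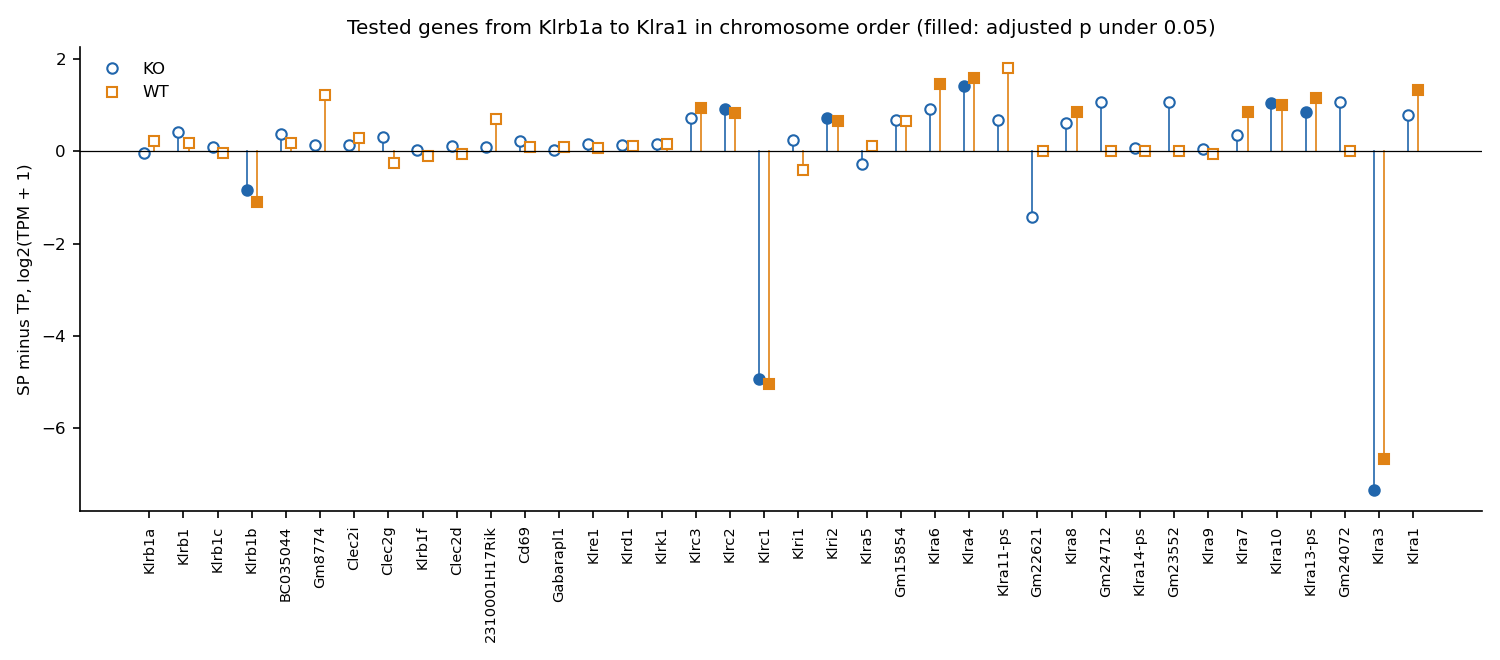
SP minus TP difference in log2(TPM + 1) for the tested genes from Klrb1a to Klra1, in chromosome order and not to distance, in KO (blue circles) and WT (orange squares); filled symbols have an adjusted p under 0.05. Klrc1 and Klra3, used in the sort, reach -4.92 and -7.33 in KO, and the called Ly49 and NKG2 neighbours point upwards in both genotypes.

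Outside the lectin receptors, 3 called genes of ordinary length were higher in SP. Cmah (ENSMUSG00000016756) encodes the hydroxylase that makes the sialic acid Neu5Gc. It stood at 32.7, 35.3 and 34.9 TPM in KO TP 1 to 3, against 66.4, 67.1 and 75.5 TPM in KO SP 1 to 3, with a mean of 117 TPM in KO TN. The SP mean was 2.03-fold higher (difference 1.00, SE 0.14, adjusted p = 0.00179). Itgax (ENSMUSG00000030789), which encodes the integrin subunit CD11c, measured 377, 388 and 336 TPM in the TP libraries and 527, 520 and 498 TPM in the SP libraries. The groups did not overlap and the SP mean was 1.40-fold higher (difference 0.49, SE 0.09, adjusted p = 0.0331). Leaving out any 1 of the 6 KO SP and TP libraries ended the Itgax call, with adjusted p between 0.0686 and 0.244 and a difference between 0.43 and 0.53. The call also ended with no filter on low values (adjusted p = 0.0517), with no variance trend (0.218) and with only the 2 groups fitted (0.161).

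Ctla2a (ENSMUSG00000044258) encodes a small protein related to the propeptide of cathepsins. It had 138, 157 and 137 TPM in KO TP and 228, 248 and 225 TPM in KO SP. The SP mean was 1.62-fold higher (difference 0.70, SE 0.11, adjusted p = 0.00559), and 273 TPM was the mean of KO TN. Without KO TP 3 or without KO SP 2 the call was lost, with an adjusted p of at most 0.0526, and likewise with only the 2 groups fitted (0.076). In WT the Ctla2a means were 152 TPM in TP and 161 TPM in SP, and the groups overlapped (difference 0.09, SE 0.11). The KO difference exceeded the WT difference by 0.60, which did not pass the test of the interaction (limma, adjusted p = 0.867).

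Adgrg5 and Il7r were lower in SP. Adgrg5 (ENSMUSG00000061577), an adhesion G protein-coupled receptor, stood at 21.0, 24.0 and 21.2 TPM in KO TP 1 to 3, against 6.81, 5.95 and 5.37 TPM in KO SP 1 to 3. The TP mean was 3.65-fold that of SP (difference -1.71, SE 0.27, adjusted p = 0.00446), and KO TN had 7.15 TPM. Il7r (ENSMUSG00000003882) encodes the interleukin-7 receptor alpha chain, used by T cell and innate lymphoid cell lineages and by part of the NK lineage. It measured 6.82, 13.3 and 4.26 TPM in the TP libraries and 0.96, 0.04 and 0.07 TPM in the SP libraries (difference -2.69, SE 0.51, adjusted p = 0.0373). The groups did not overlap, and KO TN held 1.87, 0.70 and 4.81 TPM. The Il7r call was lost without KO TP 1, KO TP 2, KO SP 2 or KO SP 3, with adjusted p up to 0.238. It was lost as well with a pseudocount of 0.1 TPM (adjusted p = 0.0723) and with only the 2 groups fitted (0.319). A further loss, at an adjusted p of 0.0535, came when marker genes of other cell types were taken out of the tested genes, an alternative chosen after seeing the data.

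The other genes of NK maturation and homing were not called. Of 30 listed genes 27 were tested, with Itgax the single call upwards and Il7r the single call downwards, and 5 lay entirely above and 5 entirely below, beside 4.75% and 6.14% of all genes tested. Cx3cr1, the fractalkine receptor of late mature NK cells, had 85.5, 70.6 and 72.1 TPM in KO TP and 44.3, 45.4 and 38.1 TPM in KO SP. The groups did not overlap, but the difference of -0.82 (SE 0.20) missed the threshold (adjusted p = 0.218). None of 27 tested lineage and maturation factors was called, with 3 entirely above and 5 entirely below (4.75% and 6.14% of all genes tested) and 4 at an unadjusted p under 0.05 (352 of all 12018). The T-box factor Eomes measured 369, 341 and 407 TPM in the TP libraries and 441, 441 and 491 TPM in the SP libraries (difference 0.30, SE 0.08, adjusted p = 0.485). Id2, the inhibitor of E proteins that innate lymphocytes need, had 1000, 1049 and 1001 TPM in KO TP and 851, 860 and 888 TPM in KO SP (difference -0.23, SE 0.07, adjusted p = 1). In KO TN the means of these 2 genes were 471 and 671 TPM.

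Receptors that share nectin ligands or act as checkpoints gave no call in limma among 10 tested, and 2 had an unadjusted p under 0.05. Cd226, the gene of the activating receptor DNAM-1, stood at 92.1, 83.2 and 94.3 TPM in KO TP 1 to 3, against 42.6, 57.7 and 30.0 TPM in KO SP 1 to 3. Every SP library lay below every TP library, and the TP mean was 2.07-fold that of SP, but the adjusted p was 0.118 (difference -1.08, SE 0.24). Without KO SP 2 it was 0.0486. KO TN had a mean of 25.4 TPM. Tigit, which encodes an inhibitory receptor for the same ligands, measured 41.6, 82.0 and 42.9 TPM in the TP libraries and 84.2, 94.6 and 61.6 TPM in the SP libraries. These ranges overlapped, and the 95% interval of the difference ran from -0.16 to 1.30.

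Genes of killing and signalling gave no call. None of 15 tested cytotoxic effector genes was called in limma, 2 had an unadjusted p under 0.05, and their median difference was -0.04. Gzma, which encodes granzyme A, had 9262, 10119 and 10690 TPM in KO TP and 9621, 9401 and 10505 TPM in KO SP, and the 95% interval of the difference ran from -0.15 to 0.10. For Prf1, which encodes perforin, the interval ran from -0.21 to 0.11. Its means were 1520 TPM in KO TP and 1465 TPM in KO SP, and the groups did not overlap. The proteoglycan gene Srgn stood at 315, 349 and 390 TPM in KO TP 1 to 3, against 271, 280 and 281 TPM in KO SP 1 to 3 without passing the test (difference -0.33, SE 0.09, adjusted p = 0.554).

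None of 19 activating receptors and adaptors was called, nor any of 26 proximal signalling genes, and in each list 1 gene had an unadjusted p under 0.05. Ncr1, which encodes NKp46, differed by -0.08, with a 95% interval from -0.20 to 0.04. Lck, a Src family kinase, differed by -0.10, with an interval from -0.30 to 0.09. For Ncr1 and Lck every SP library lay below every TP library, as for 6.14% of all genes tested. None of 12 tested cytokine and chemokine genes was called, and 3 had an unadjusted p under 0.05. Ccl3, a chemokine of activated NK cells, measured 170, 164 and 169 TPM in the TP libraries and 177, 148 and 160 TPM in the SP libraries, with overlapping ranges. None of 28 early response genes and regulators linked to anergy was called, with 1 at an unadjusted p under 0.05. Egr2, an early growth response factor, had 5.62, 1.49 and 7.11 TPM in KO TP and 0.83, 1.73 and 1.65 TPM in KO SP, and these ranges overlapped too.

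No gene was called among 25 cytokine receptors and JAK-STAT genes, 20 genes of MHC class I and peptide loading, 22 interferon-stimulated genes, 16 heat shock genes, 21 cell cycle genes and 13 members of the BCL-2 family. At an unadjusted p under 0.05 in limma these lists held 1, 1, 0, 2, 3 and 1 genes. H2-K1, a classical MHC class I heavy chain, had means of 6060 TPM in KO TP and 6313 TPM in KO SP. Bmf, a pro-apoptotic BCL-2 family member, stood at 0.52, 1.15 and 0.35 TPM in KO TP 1 to 3, against 2.86, 10.5 and 6.12 TPM in KO SP 1 to 3. Its groups did not overlap, and the difference of 2.05 (SE 0.47) had an adjusted p of 0.13, which became 0.0488 with a pseudocount of 0.1 TPM. In WT, Bmf means were 25.3 TPM in TP and 19.8 TPM in SP. Hspa8, a constitutive heat shock protein gene, followed the replicate number in place of the subset. It was at 1826, 1563 and 2545 TPM in KO TP, at 1996, 1586 and 2638 TPM in KO SP and at 2105, 1582 and 2660 TPM in KO TN, each time highest in replicate 3 and lowest in replicate 2.

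**Figure D3:**
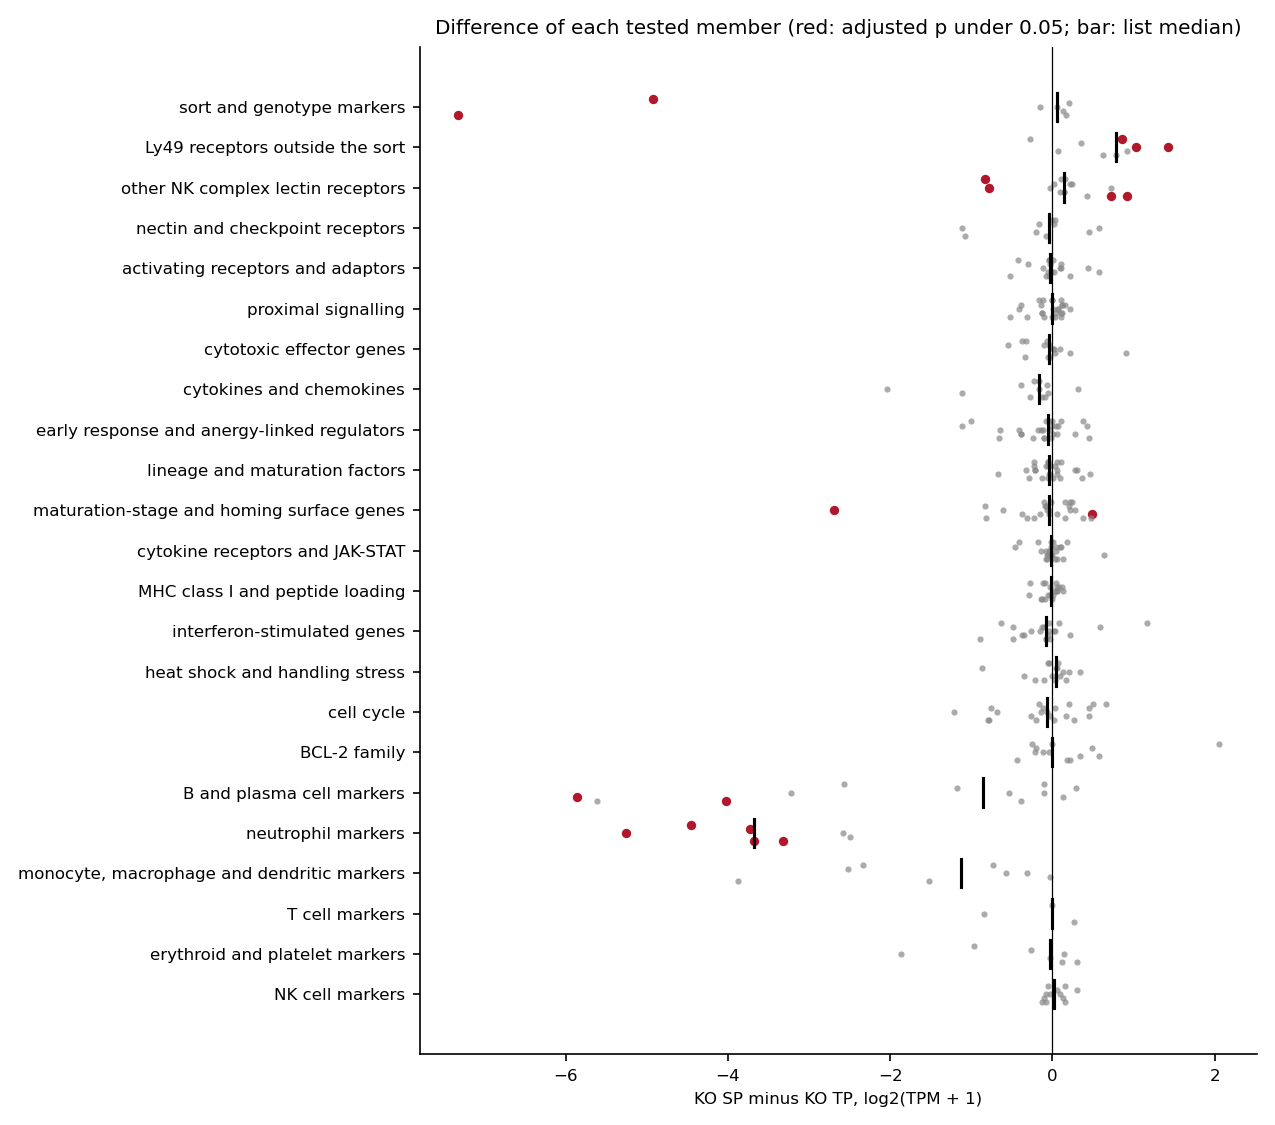
KO SP minus KO TP difference in log2(TPM + 1) of each tested gene of 23 lists (points), with the list median (black bar); red points have an adjusted p under 0.05. Red points above 0 occur in the Ly49, lectin and maturation lists, and most lists of NK function centre near 0.

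Among the lists of markers of other cells, those of neutrophils and of B and plasma cells held calls. The lists of T cells, of erythroid cells and platelets, and of monocytes, macrophages and dendritic cells held none. NK cell markers were high in both, with a sum over 12 genes of 23770 to 24970 TPM in KO TP and 24080 to 25290 TPM in KO SP, and none was called (1 at an unadjusted p under 0.05). The sum over 17 neutrophil markers was 71.1 to 254 TPM in KO TP and 0 to 6.08 TPM in KO SP, and it was at most 2.73 TPM in every WT and KO TN library. Of these markers 9 were entirely higher in TP, 7 were tested and 5 were called. All 7 tested lay entirely higher in TP, beside 6.14% of all genes tested, and 0.116% of all were called lower in SP. These 7 reached the filter of 1 TPM only through KO TP. A neutrophil marker that was low there was not tested, so the counts follow in part from the filter. S100a9, a calgranulin subunit, measured 13.2, 52.3 and 95.1 TPM in the TP libraries and 0, 0.31 and 0 TPM in the SP libraries (difference -5.25, SE 0.55, adjusted p = 5.67e-05), and was not called with only the 2 groups fitted (adjusted p = 0.157). Ngp, a neutrophil granule protein, had 17.8, 19.4 and 39.96 TPM in KO TP and 0, 0.48 and 0 TPM in KO SP (difference -4.46, SE 0.44, adjusted p = 2.5e-05). The other 3 called were S100a8, Ltf and Lcn2, with differences of -3.67, -3.73 and -3.32. S100a8 and Ltf lost their calls with a pseudocount of 0.1 TPM (adjusted p = 0.0723 and 0.113) and with only the 2 groups fitted (0.289 and 0.39). KO TP 3 had the highest summed level. Elane and Cxcr2 were at 0 in all 6 libraries.

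Igha and Jchain, genes of plasma cells, were called lower in SP. The sum over 26 B cell and plasma cell markers was 434 to 748 TPM in KO TP and 208 to 241 TPM in KO SP. Of 12 tested, 2 were called lower in SP and 5 lay entirely lower, beside 0.116% and 6.14% of all genes tested. With untested markers included, 8 of the 26 lay entirely lower. Most of the SP sum came from Ighm, the IgM heavy chain constant gene, which had 216, 177 and 159 TPM in KO TP and 194, 213 and 194 TPM in KO SP. These ranges overlapped (difference 0.13, SE 0.10, adjusted p = 1). Ighd, the IgD heavy chain constant gene, differed by 0.29 and Derl3 by -0.53, each with overlapping groups and an adjusted p of 1. Igha, the heavy chain constant gene of IgA, stood at 166, 70.5 and 169 TPM in KO TP 1 to 3, against 2.47, 2.02 and 0 TPM in KO SP 1 to 3 (difference -5.86, SE 0.75, adjusted p = 0.000747). The Igha call was lost with a pseudocount of 0.1 TPM (adjusted p = 0.0952) and with only the 2 groups fitted (0.0587). Igha reached the filter of 1 TPM only through KO TP. Jchain, the chain that joins polymeric immunoglobulins, measured 15.7, 13.5 and 18.8 TPM in the TP libraries and 0, 0.11 and 0 TPM in the SP libraries (difference -4.03, SE 0.61, adjusted p = 0.00401), and its call was lost with the smaller pseudocount (adjusted p = 0.0796). Igkc, the kappa light chain constant gene, had means of 221 TPM in KO TP and 4.33 TPM in KO SP and an adjusted p of 0.0527 (0.0411 after quantile normalization). In WT TP the means of Igha and Jchain were 0.0967 and 3.26 TPM, and in WT SP they were 0 and 2.71 TPM. Igkc had WT means of 28.2 TPM in TP and 8.20 TPM in SP, without overlap. The WT sum over the list was 215 to 220 TPM in TP and 188 to 202 TPM in SP. Of the tested members, 4 lay entirely lower in WT SP and 1 entirely higher, beside 645 and 624 of all 12018 genes, and none was called. Tnfrsf17, which marks plasma cells, was at 0 in all 6 libraries.

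Markers of monocytes, macrophages and dendritic cells summed to 75.2 to 95.6 TPM in KO TP and 16.6 to 18.2 TPM in KO SP over 21 genes. None of 8 tested was called in limma, and 4 had an unadjusted p under 0.05. Of these 8, 5 lay entirely higher in TP, beside 6.14% of all genes tested. Among them were Lyz2 (adjusted p = 0.0761, and 0.0287 without KO SP 3), Cd74 and H2-Aa. With untested markers included, 6 of the 21 lay entirely higher in TP. Fcgr1 was at 0 in all 6 libraries. In WT the same sum was 36.4 to 64.3 TPM in TP and 14.9 to 31.2 TPM in SP. T cell markers summed to 210 to 220 TPM in KO TP and 181 to 231 TPM in KO SP, most of it from Trbc2, and none of 3 tested was called in limma (0 at an unadjusted p under 0.05). Erythroid and platelet markers summed to 126 to 207 TPM in KO TP and 104 to 124 TPM in KO SP, with none of 7 tested called (1 at an unadjusted p under 0.05). The part of other cells in the differences of Il7r, Itgax and the further called genes was not tested. With these marker genes left out of the tested genes, 15 genes were called, 10 higher and 5 lower.

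**Figure D4:**
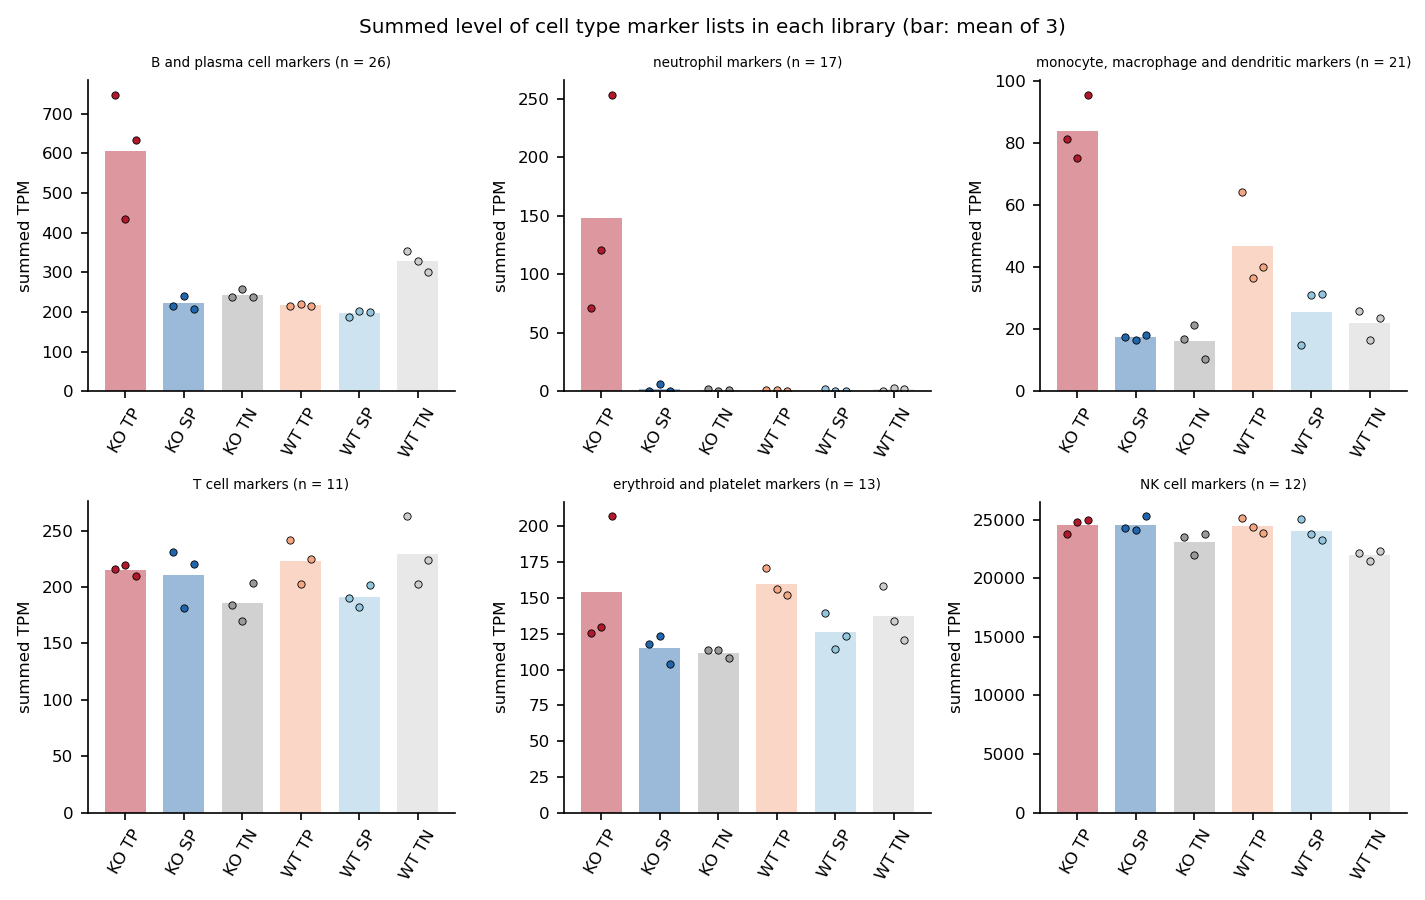
Summed TPM of cell type marker lists in each library of the 6 sorted groups; bars are means of 3 libraries, points are single libraries, and n is the number of listed genes in the table. Neutrophil markers reach 71.1 to 254 TPM in KO TP and stay at or below 6.08 TPM in the other 5 groups, while NK cell markers overlap between KO TP and KO SP.

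The remaining 3 calls were RNA genes of 62 to 117 bases, shorter than typical messenger RNA. Mir6948 was listed at 0 in KO TP 1 to 3 and at 36.1, 35.4 and 68.2 TPM in KO SP 1 to 3 (difference 5.50, SE 0.85, adjusted p = 0.00446). The small nuclear RNA gene Gm24762 was listed at 0 in KO TP and at 13.4, 15.7 and 4.33 TPM in KO SP (adjusted p = 0.0176). Mir1291 had 6.5, 18.1 and 17.3 TPM in KO TP and 0.92, 0 and 0 TPM in KO SP (difference -3.47, SE 0.67, adjusted p = 0.0385). All 3 were listed at 0 in every WT SP and TP library and reached the filter of 1 TPM through KO libraries alone. Libraries were made with a kit for messenger RNA, so these are levels of the gene intervals and not of mature miRNAs, and a few reads on so short a gene give a high TPM. The calls of Gm24762 and Mir1291 were each lost without any of 5 of the 6 libraries, with adjusted p up to 0.152 and 0.244. Gm24762 kept its call without KO SP 3, and Mir1291 kept its call without KO TP 1. Both calls were also lost with a pseudocount of 0.1 TPM (adjusted p = 0.0723 and 0.351) and with only the 2 groups fitted (0.156 and 0.166). The mature sequences annotated in the 2 miRNA genes (RefSeq, GRCm38.p6) are shown to identify the intervals, with the seed, bases 2 to 8, in capitals; no seed is shared.
mmu-miR-6948-5p: aGUUCAGAcaggacugugacac
mmu-miR-6948-3p: uGUCCUUCcugucugaccaca
mmu-miR-1291: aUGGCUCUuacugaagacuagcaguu

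The same contrast in WT, where MHC class I is present, compares other libraries than the KO contrast. Both were taken from 1 fit with 1 spread per gene, so their calls are not independent. In WT 23 genes were called, 0.191% of those tested, 14 higher and 9 lower in SP. Of these, 11 were also called in KO, which is 45.8% of the KO calls and 47.8% of the WT calls, and all 11 had the same direction. They were the sorted Klra3 and Klrc1, with Klra4, Klra10, Klra13-ps, Klrc2, Klri2, Cmah, Klrb1b, Klrg1 and Adgrg5. The counts and percentages thus include Klra3 and Klrc1, whose direction the sort fixed in both genotypes. With only the 2 groups of a genotype fitted, KO had 15 calls and WT 8, and the overlap of those calls was not counted. Klra4 rose from a mean of 271 to 823 TPM in WT, a difference of 1.59 against 1.42 in KO. Cmah rose from 39.0 to 69.4 TPM in WT, a difference of 0.81 against 1.00 in KO. Klrg1 fell from 437 to 246 TPM in WT, a difference of -0.84 against -0.78 in KO. Its KO means of 142 TPM in TP and 82.6 TPM in SP were below both WT means, a comparison that was not tested.

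The other 12 WT calls were not called in KO, but all 12 had the same sign there. In 11 the KO groups did not overlap, Scimp (0.06) being the exception, beside 10.9% of all genes tested. The 12 were Klra1, Klra6, Klra7, Klra8, Klrc3, Anxa8, Arl4c, Cd55, Cdc42ep1, Gramd3, Ltb and Scimp. Klra7 rose from 290 to 527 TPM in WT (difference 0.86, SE 0.09), against 0.35 in KO. The interaction for Klra7 was -0.51 and did not pass the test (adjusted p = 0.86). Ltb, which encodes lymphotoxin beta, stood at 16.8, 35.8 and 24.3 TPM in KO TP 1 to 3, against 11.8, 11.3 and 9.46 TPM in KO SP 1 to 3 (adjusted p = 1), while the WT means were 26.1 and 4.37 TPM. The chemokine genes Ccl3 and Ccl4 had WT differences of 0.53 and 0.44 and KO differences of -0.06 and -0.38; the KO value of Ccl3 changed sign without KO SP 2. Neither gene passed the test in either genotype, and the interaction had an adjusted p of 0.867 for each.

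The test of whether the KO difference departed from the WT difference called 2 genes, 0.0166% of those tested, both of them neutrophil markers, Ngp and S100a9. No gene was called with a pseudocount of 0.1 TPM or with a filter at 5 TPM. Leaving out 1 of the 12 SP and TP libraries ended the Ngp call in 5 fits and the S100a9 call in 9. At an unadjusted p under 0.05, limma had 352 genes in KO, 927 in WT and 530 in the interaction. Apart from Ngp and S100a9, a gene called in 1 genotype and not in the other was not shown to differ between them.

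**Figure D5:**
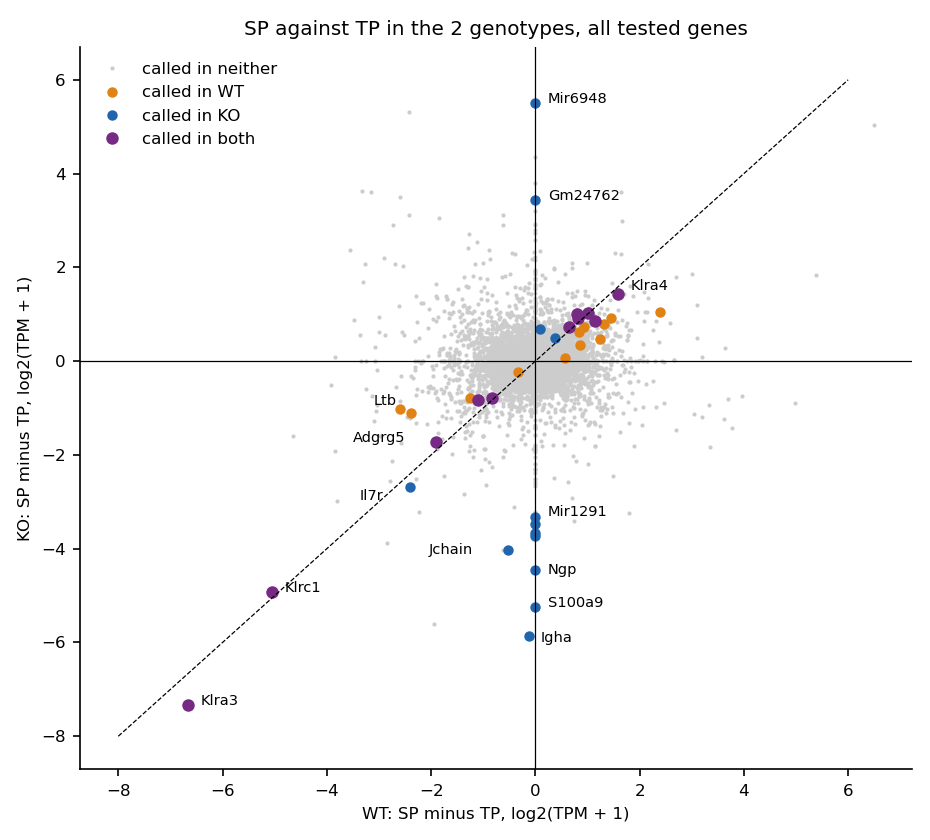
SP minus TP difference in log2(TPM + 1) in WT (horizontal) and KO (vertical) for all tested genes; colours mark genes called in KO, in WT, in both or in neither, and the dashed line is equality. The 11 genes called in both lie near the line, and the neutrophil markers, the plasma cell marker Igha and the short RNA genes lie near 0 in WT.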

How the data were processed

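Gene expression was measured by RNA sequencing of sorted mouse NK cells, and the authors deposited 1 table of TPM for the 18 sorted splenic libraries, of which 6 enter the comparison. The submitters' processing notes name STAR, RSEM and GRCm39, without versions or roles. Total RNA went into a messenger RNA library kit, per the labels' protocols. The table holds 32940 genes with symbols, and 12018 of them, whose mean over the 18 libraries reached 1 TPM, were tested as log2(TPM + 1), a pseudocount of 1 TPM. Limma 3.58.1 in R 4.3.3 fitted 1 mean for each of the 6 groups with an intensity trend, two-sided, with Benjamini-Hochberg adjustment over all tested genes and a threshold of 0.05. The fit was tested on simulated data. Intervals are at 95%. A pair of groups is described as not overlapping when every library of one lies beyond every library of the other. Groups came from sample titles.

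The members and the 23 gene lists were chosen with earlier results of these data known. Named genes were those called in KO or in the interaction, the sort and genotype markers, the list members with the smallest p or highest TPM, and markers of other cells reaching 5 TPM. Alternatives changed the pseudocount, filter, scaling, variance trend, samples in the fit and block, and left out each library. The other 3 tables of the series were not used here. Sequences are from RefSeq (GRCm38.p6), and transcripts from GENCODE M21.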

Additional observations from a re-analysis of the deposited data

Results flagged for a closer look

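The difference between KO SP and KO TP departed from that between WT SP and WT TP, in limma's test of the interaction, for 2 genes. For Ngp it was -4.46 on the log2(TPM + 1) scale (adjusted p = 0.0202). For S100a9 it was -5.25 (adjusted p = 0.0233). Both are neutrophil genes, listed at 0 in all WT libraries and in KO SP 1 and 3, and both reached the filter of 1 TPM only through KO TP. Leaving out 1 of 12 libraries ended the Ngp call in 5 fits, those without WT TP 2, WT TP 3, WT SP 2, KO TP 3 or KO SP 1, with adjusted p between 0.0163 and 0.0739 over all 12. The S100a9 call was lost in 9 and kept without KO TP 1, KO SP 2 or KO SP 3, with adjusted p between 0.000474 and 0.138. The part of neutrophil RNA in the KO TP libraries was not tested.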

How the results depend on the processing

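Between KO SP and KO TP, 24 calls became 41 with no filter on low values, 18 with a pseudocount of 0.1 TPM, 16 with a filter at 5 TPM and 15 when only the 2 groups were fitted. They became 15 with markers of other cells left out, chosen after seeing the data. Leaving out 1 library gave 19 to 27 calls in KO and 17 to 24 in WT. The 23 WT calls became 8 in a fit of the 2 WT groups alone. The 2 interaction calls became 0 with a pseudocount of 0.1 TPM, 5 with no filter, 0 with a filter at 5 TPM, 4 with no variance trend, 6 with only the 4 groups compared, and 0 to 5 without 1 library. With a replicate block, KO had 24 calls, WT 26 and the interaction 0. Deviations of same-numbered SP and TP libraries correlated at -0.01, 0.03 and 0.05, none over 0.1, and the main fit used no block. Such low values over all genes do not show that the animals differ, and Hspa8 followed the number in KO TP, SP and TN. KO SP 2 and KO SP 3 correlated best with the KO TP library of their own number, and KO SP 1 with KO TP 2. Quantile normalization and rescaling by median-of-ratios moved the median difference by 0.02 and 0.01.

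Of the 24 called genes, 11 kept their call in every alternative that could be run, and 13 lost it in at least 1. Only genes that were not called reversed. Leaving out 1 library gave -0.052 to 0.113 for Klra9, -0.081 to 0.022 for Gzma, -0.122 to 0.264 for Hspa8 and -0.126 to 0.004995 for Ccl3. Quantile normalization gave 0 for Gzma and -0.00264 for Hspa8. With the replicate block Klra8 and Cx3cr1 passed the threshold, at adjusted p of 0.000975 and 0.0334, and Il7r, Gm24762 and Mir1291 did not, at 0.159, 0.0708 and 0.134.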

Other observations

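Other genes of the lists are given as values; the KO SP minus KO TP difference, on the log2(TPM + 1) scale, had a limma adjusted p of 1 for each gene of this paragraph. Tcf7, a transcription factor of early NK maturation, measured 76.5, 79.5 and 74.2 TPM in the TP libraries and 99.2, 88.0 and 93.4 TPM in the SP libraries, a difference of 0.28, and its KO TN mean was 154 TPM. Ikzf3, which encodes Aiolos, had 645, 671 and 689 TPM in KO TP and 576, 577 and 581 TPM in KO SP, a difference of -0.21. The KO groups of both genes did not overlap. Ikzf2, which encodes Helios, stood at 10.5, 8.64 and 13.8 TPM in KO TP 1 to 3, against 4.09, 5.57 and 5.09 TPM in KO SP 1 to 3, without overlap. Mki67, a marker of dividing cells, measured 5.80, 5.08 and 3.45 TPM in the TP libraries and 2.19, 2.28 and 2.44 TPM in the SP libraries, also without overlap. Of 21 tested cell cycle genes, 4 lay entirely lower in KO SP and none entirely higher, beside 6.14% and 4.75% of all genes tested.

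Further genes with non-overlapping KO groups and an adjusted p of 1 are given as values. Lat2, an adaptor of the LAT family, had means of 321 TPM in KO TP and 373 TPM in KO SP, a difference of 0.22. Lamp1, a lysosomal membrane protein that marks degranulation, had means of 117 and 136 TPM, also a difference of 0.22. Il18rap, a chain of the interleukin-18 receptor, had means of 983 and 888 TPM, a difference of -0.15. Il12rb1, a chain of the interleukin-12 receptor, had means of 46.6 and 34.3 TPM, a difference of -0.42, and the costimulatory receptor gene Cd28 had 26.9 and 21.7 TPM, a difference of -0.30. None of these genes was called in WT.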
